A study of Mus musculus with 41 samples.

Results

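Mouse melanomas taken 1 day after doxycycline was withdrawn were compared with melanomas from animals still on the drug. The comparison holds 7 tumours labelled 1 day off doxycycline and 4 labelled 0 days, chosen by that label alone from the 41 tumours of the series. Every tumour is from the iBIP model, in which doxycycline in the drinking water keeps a BRAF transgene active and its removal switches the transgene off. Publications on the model, though not the labels, describe inherited losses of tumour suppressors, the Ink4a/Arf locus among them, which tumours of both days would share. Strain, tissue and days off the drug are the only characteristics the labels give, so age, sex and the promoter that drives the transgene are not stated here. No label says whether tumours shared a mouse, so p-values measure the spread between tumours only. That spread was pooled over the groups of all 41 tumours, not taken from the compared tumours alone.

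RNA came from pieces of tumour freed of skin and was hybridised to Affymetrix Mouse Genome 430 2.0 arrays. Of 45101 probe sets, 34958 named exactly 1 gene. They covered 18194 genes, each read from its brightest probe set, and 14319 genes passed the filter on low values. All levels are log2(intensity + 16), and all differences are log2 differences of day 1 minus day 0 with their standard error (SE). The constant of 16 makes the fold changes of dim genes smaller than they are. A gene is called higher or lower at a Benjamini-Hochberg adjusted p under 0.05 in limma, over all genes tested. A signal per tumour is a mixture of tumour and host cells, so fewer cells of a type and less RNA per cell cannot be told apart.

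BRAF is a kinase of the RAS to ERK pathway. It activates MEK, MEK activates ERK, and ERK induces growth genes together with its own inhibitors, among them phosphatases of the Dusp family and the Sprouty and Spred proteins. Melanomas driven by mutant BRAF depend on this output, and its loss is known to act on cell cycle entry, on metabolism and on the exchange with immune cells.

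The arrays of the days differed in ways that the labels do not explain. All day 1 tumours have title numbers from 1005 to 1072, whereas those of day 0 have the numbers 172, 209, 3353 and 3329. The spike-in control dap, added before labelling, read 8.61 to 9.24 in 6 day 1 arrays and 10.19 in day 1 replicate 4, against 9.59 to 10.56 at day 0. Its gap between 3′ and 5′ probe sets was 2.41 to 3.07 in those 6 arrays and 1.26 in replicate 4, against 1.53 to 1.79 at day 0. By bioD and dap levels the arrays fall into 3 spike-in sets: day 1 replicate 4 is in set 1, the other 6 of day 1 in set 2 and all of day 0 in set 3. No set holds both days, so that spike-in set and day can be separated only through tumours of other times. The gap of the Gapdh control, which widens in degraded RNA, was 0.02 to 1.07 at day 1 and 0.35 to 0.58 at day 0. On the first principal component of the 11 tumours, with 36.7% of the variance, day 1 ran from -3.89 (replicate 4) to 28.31 and day 0 from -44.13 to -21.77.

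Over all genes, 1979 of 14319 were called (13.8%), 1084 of them higher (7.57%) and 895 lower (6.25%) at day 1. The counts of the gene lists below are to be read against these shares. Lists with 1 call in a direction are near or below them. In 568 genes (3.97%) every day 1 tumour lay above every day 0 tumour, and in 626 genes (4.37%) below. Among 513 genes (3.58%) called with at least a 2-fold change, 430 were higher and 83 lower, while the median difference of all genes was 0.0024. The share of the called genes that was higher, 54.8%, was 67.6% with arrays centred on their medians and 63.1% without scaling. It was 49.5% with the probe sets of a gene averaged, 49.3% with array weights, 45.7% with every probe set tested and 41.7% with the gap of dap as a covariate, so that lower calls were then the majority. The call count was 889 without day 0 replicate 4 and 2455 without day 1 replicate 4, the tumour of spike-in set 1. That tumour lay past the day 0 range, in the direction of the call, in 59.4% of the called genes, against 86.7% to 96.9% for the other day 1 tumours.

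ERK target genes were lower at day 1. Of 28 tested, 11 fell and 0 rose, where 6.25% of all genes fell, and their median difference was -0.63. The inhibitors of the pathway were among them: the Sprouty genes Spry2 and Spry4, the Spred gene Spred3 and the phosphatase genes Dusp4, Dusp5 and Dusp6 all fell. The summed intensity of the 28 genes was 15700 to 24300 at day 1 and 28300 to 43700 at day 0, with no overlap.

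Spred3, an inhibitor of RAF activation, had a lowest level of 6.44, a median of 6.88 and a highest of 7.59 at day 1, against 8.51, 7.45, 7.59 and 8.61 at day 0. Day 1 replicate 3 reached the level of day 0 replicates 2 and 3 and the other 6 lay below all of day 0 (-1.13 ± 0.20 SE, adjusted p = 0.000403). Spry2, a Sprouty gene, spanned 8.03 to 8.91 (median 8.44) at day 1, against 9.51, 8.99, 9.04 and 9.24 at day 0. The groups did not overlap, and the difference was -0.77 ± 0.19 (adjusted p = 0.00608). Plau, the urokinase gene, was at 5.32 to 5.67 (median 5.45) at day 1 and at 6.17, 6.15, 6.07 and 5.74 at day 0. It was dim in all tumours, with no overlap between the days (-0.57 ± 0.11, adjusted p = 0.00079).

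Epha2, a receptor tyrosine kinase induced by ERK, ran from 7.44 to 8.34 (median 7.94) at day 1, against 9.60, 8.19, 8.23 and 9.07 at day 0. Only day 1 replicate 3 overlapped day 0, and the fall of 0.95 ± 0.23 on the log2 scale (adjusted p = 0.00537) was at adjusted p = 0.0543 without day 0 replicate 1. Dusp4, a phosphatase of nuclear ERK, was at 6.89 to 9.19 (median 8.18) at day 1 and at 10.47, 8.53, 9.20 and 9.63 at day 0. Here 5 of the 7 day 1 tumours lay below day 0 (-1.26 ± 0.40, adjusted p = 0.0307), and dropping replicate 1 (0.166) or 4 (0.0999) of day 0, or replicate 1 (0.0597) or 6 (0.0736) of day 1, ended the call. Dusp6, which acts on ERK in the cytoplasm, had 9.75 to 10.93 (median 10.39) at day 1, against 11.04, 10.97, 10.91 and 11.39 at day 0, with 6 of 7 below day 0 (-0.72 ± 0.22, adjusted p = 0.0259). Dropping replicate 1 (0.0523) or 4 (0.126) of day 0, or replicate 5 (0.059) of day 1, ended the Dusp6 call. Etv4, an ETS factor of the pathway, was at 7.23 to 8.16 (median 7.79) at day 1 and at 7.99, 8.23, 8.32 and 8.33 at day 0. Its fall of 0.53 ± 0.17 on the log2 scale (adjusted p = 0.0311) did not pass when day 0 replicate 2, 3 or 4 was dropped, or day 1 replicate 2 or 6 (0.0606 to 0.112).

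Spry4 was also called (-0.63 ± 0.19, adjusted p = 0.0256), but not when day 0 replicate 1 or 4 was dropped, or day 1 replicate 5 or 6 (0.0515 to 0.129). The last 3 of the 11, named after their values were seen, were Dusp5 (-0.90 ± 0.23), Spred2 (-0.58 ± 0.19) and the cytokine gene Lif (-0.80 ± 0.22). Fosl1, an AP-1 factor, was at 7.34 to 8.38 (median 8.04) at day 1, against 9.10, 8.51, 8.43 and 8.84 at day 0. Ccnd1, the cyclin D1 gene, was at 11.35 to 12.18 (median 12.09) at day 1 and at 12.28, 12.36, 12.81 and 12.73 at day 0. In both genes the groups did not overlap, yet neither was called (-0.80 ± 0.31, adjusted p = 0.0851, and -0.61 ± 0.25, adjusted p = 0.0993). These values are from the brightest probe set of each gene. Dimmer probe sets differed by -1.20 and -0.88 in Ccnd1 and by -0.20 in Fosl1. In a limma fit of the 11 compared tumours alone the brightest probe sets of both genes passed (adjusted p = 0.027 and 0.0472). Spry4 (0.107), Dusp4 (0.0773) and Etv4 (0.0563) did not pass in that fit. Mmp1a, a collagenase gene, had the widest spread, 5.95 to 11.40 (median 7.73) at day 1 and 11.65, 9.12, 9.98 and 10.03 at day 0, and was not called (-1.61 ± 0.83, adjusted p = 0.201). Etv5, a close relative of Etv4, was at -0.11 ± 0.25 (adjusted p = 0.821). With a term for the spike-in set added to the fit (the spike-in block), 0 of the 28 genes were called lower and the list's median was -0.36, while Spred3 was at -0.63 (adjusted p = 0.193) and Spry2 at -0.39 (adjusted p = 0.398). Fosl1 and Ccnd1 were both at -0.07 under the block. The list held 4 lower calls without day 0 replicate 4 and 6 without day 0 replicate 1.

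**Figure D1:**
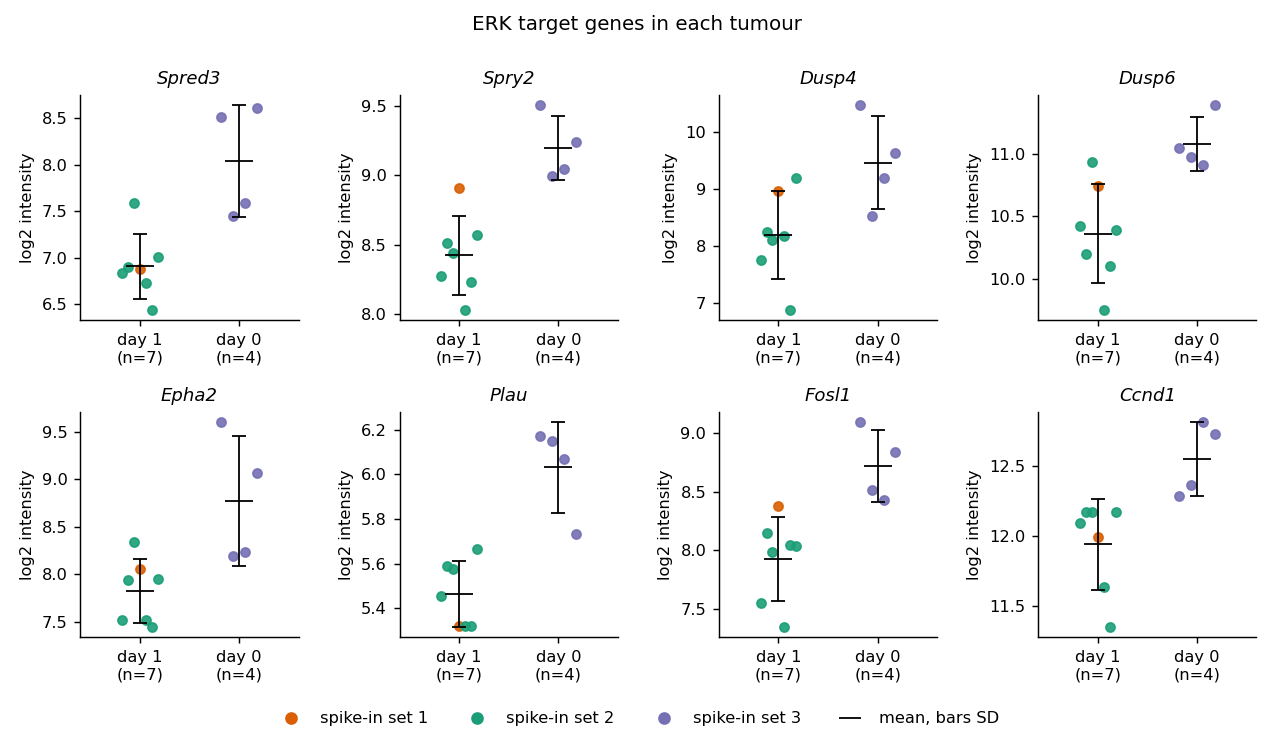
Log2 intensity (y axis) of 8 ERK target genes in each of the 7 day 1 tumours (left of each panel) and 4 day 0 tumours (right), with the mean and SD in black and colour giving the spike-in set. Spry2, Plau, Fosl1 and Ccnd1 do not overlap between the days, and in the other 4 genes 1 or 2 day 1 tumours reach the day 0 range.

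Genes upstream of ERK and fast response genes had few calls. Immediate early genes, which serum and stress induce within minutes, had 0 of 23 members called in either direction (median -0.19), with Egr1 at -0.43 ± 0.33 (adjusted p = 0.426), Fos at -0.32 ± 0.39 (adjusted p = 0.646) and Myc at -0.36 ± 0.28 (adjusted p = 0.434). Of 18 genes of the RAS to ERK cascade, 1 fell, where 6.25% of all genes fell. It was the adaptor gene Shc1, which links receptors to RAS. Shc1 was at 8.33 to 8.63 (median 8.42) at day 1 and at 8.87, 8.78, 8.72 and 8.91 at day 0, with no overlap (-0.38 ± 0.11, adjusted p = 0.0199). That call ended without day 0 replicate 1 (0.0562) or 4 (0.0818). The brightest Braf probe set was at 8.19 to 8.67 (median 8.40) at day 1, against 8.56, 8.41, 8.46 and 8.37 at day 0 (-0.00 ± 0.11, adjusted p = 0.989). Over 9 Braf probe sets the difference ran from -0.57 to 0.33, and whether any of them reads the transgene is not known.

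Receptor tyrosine kinases and their ligands went both ways, with 3 of 25 higher and 3 lower, where 7.57% of all genes rose and 6.25% fell. Higher calls numbered 0 without day 0 replicate 4. Lower calls numbered 0 without day 0 replicate 3 or 4, and 1 when day 0 replicate 1 was dropped, or day 1 replicate 1 or 6. Gas6, the ligand of the Axl and Mertk receptors, was at 8.53 to 10.06 (median 9.66) at day 1 and at 7.95, 8.44, 8.47 and 7.01 at day 0. All day 1 tumours were higher (1.55 ± 0.40, adjusted p = 0.00823), a call at 0.0739 without day 0 replicate 4. Met, the receptor of hepatocyte growth factor, was at 7.18 to 8.99 (median 8.12) at day 1, against 8.69, 9.14, 9.57 and 9.51 at day 0, with 5 of 7 below day 0 (-1.12 ± 0.31, adjusted p = 0.014). The Met call ended without day 0 replicate 3 (0.055) or 4 (0.0673). Btc, an EGF receptor ligand, was at -1.34 ± 0.46 (adjusted p = 0.0471), a call that ended without any 1 of 7 of the 11 tumours (0.0561 to 0.209).

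A few brakes on the cell cycle and FOXO target genes were called higher, while their lists as a whole went both ways. FOXO factors are held out of the nucleus by the PI3K pathway. Cdkn1b, which encodes the CDK inhibitor p27 and is a FOXO target, was 2.02-fold higher at day 1, and Txnip and Sesn1 were 2.31 and 2.23-fold higher. In each of these 3 genes all 7 day 1 tumours lay above all day 0 tumours, and each call passed whichever 1 tumour was left out.

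Cdkn1b was at 7.35 to 8.37 (median 8.16) at day 1, against 7.12, 7.05, 7.14 and 6.88 at day 0. Day 1 replicate 4 was the lowest, and the other 6 lay at 8.07 and above (1.01 ± 0.18, adjusted p = 0.000397). Txnip, an arrestin that limits glucose uptake, was at 10.27 to 10.96 (median 10.64) at day 1 and at 9.67, 9.75, 9.11 and 9.41 at day 0. Its difference was 1.21 ± 0.22 (adjusted p = 0.000569), with no overlap. Sesn1, a sestrin that restrains mTORC1, had 9.33 to 10.20 (median 9.77) at day 1, against 8.57, 8.95, 8.82 and 8.03 at day 0 (1.15 ± 0.22, adjusted p = 0.000748). Under the spike-in block, Cdkn1b was at 1.34 (adjusted p = 0.00131), Txnip at 1.34 (adjusted p = 0.0157) and Sesn1 at 1.03 (adjusted p = 0.0604).

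Of the 21 FOXO and PI3K genes, 3 rose and 1 fell, and the list's median was -0.14. The third that rose was Pik3ip1, an inhibitor of PI3K, at 8.01 to 9.28 (median 8.39) at day 1, against 6.86, 8.02, 8.02 and 7.45 at day 0. Its 0.94 ± 0.27 (adjusted p = 0.0156) did not pass without day 0 replicate 1 (0.104) or 4 (0.0626). Irs1, the insulin receptor substrate that FOXO also controls, was at 8.65 to 9.51 (median 8.90) at day 1 and at 9.56, 9.78, 9.89 and 9.93 at day 0. It fell with no overlap (-0.77 ± 0.25, adjusted p = 0.0386), a call that ended without any 1 of 9 of the 11 tumours (0.0508 to 0.124).

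Among 20 cyclins, CDKs and other genes of G1, 3 rose and 3 fell, where 7.57% of all genes rose and 6.25% fell. Rbl2, a retinoblastoma relative that represses E2F genes in quiescent cells, was at 8.13 to 8.65 (median 8.36) at day 1 and at 8.13, 7.82, 7.75 and 7.21 at day 0. Its lowest day 1 tumour was just above day 0 replicate 1 (0.65 ± 0.17, adjusted p = 0.00994, at 0.1 without day 0 replicate 4). E2f3, which drives S phase genes, was at 7.73 to 8.23 (median 7.85) at day 1 and at 8.32, 8.35, 8.45 and 8.38 at day 0. It fell without overlap (-0.42 ± 0.10, adjusted p = 0.00613). E2f1 did so too (-0.44 ± 0.14, adjusted p = 0.0393), but its call ended without any 1 of 7 of the 11 tumours (0.055 to 0.124). Cdkn2c, which encodes the CDK inhibitor p18, was the third that fell (-0.47 ± 0.15, adjusted p = 0.0374), a call that ended when replicate 1 or 4 of day 0, or 3 or 5 of day 1, was dropped (up to 0.18). Cdkn1c, another CDK inhibitor gene, was not called (-0.65 ± 0.48, adjusted p = 0.391). Dropping day 0 replicate 4 left 1 higher and 1 lower call in the list, and dropping day 1 replicate 5 left 1 lower call. The summed intensity of the 20 genes was 13500 to 15800 at day 1 and 16400 to 19600 at day 0.

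The machinery of cell division itself had few calls. In mitosis 0 of 27 genes were called, although 25 differences were negative (median -0.27), and in DNA replication 1 of 26 was lower, Orc1 (-0.36 ± 0.10, adjusted p = 0.0186, at 0.157 without day 0 replicate 4). Mki67, the proliferation marker, was at 9.76 to 10.28 (median 10.12) at day 1, against 9.62, 10.05, 10.48 and 10.60 at day 0. Its levels at day 1 lay inside the day 0 range (-0.13 ± 0.35, adjusted p = 0.852). Under the spike-in block the mitosis list had 1 lower call and a median of -1.01, and Mki67 was at -0.93 (adjusted p = 0.287). Aurka, a mitotic kinase, was the mitosis gene with the largest difference, -0.51 ± 0.20 (adjusted p = 0.0833), with all 7 day 1 tumours below day 0. The BCL2 family had 0 of 15 called, with the cell death genes Bmf at 0.72 ± 0.28 (adjusted p = 0.0816) and Bcl2l11 at -0.68 ± 0.31 (adjusted p = 0.143) and the survival gene Mcl1 at 0.26 ± 0.12 (adjusted p = 0.138). Of 17 p53 targets 1 rose and 3 fell, with 0 lower calls without day 0 replicate 1.

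**Figure D2:**
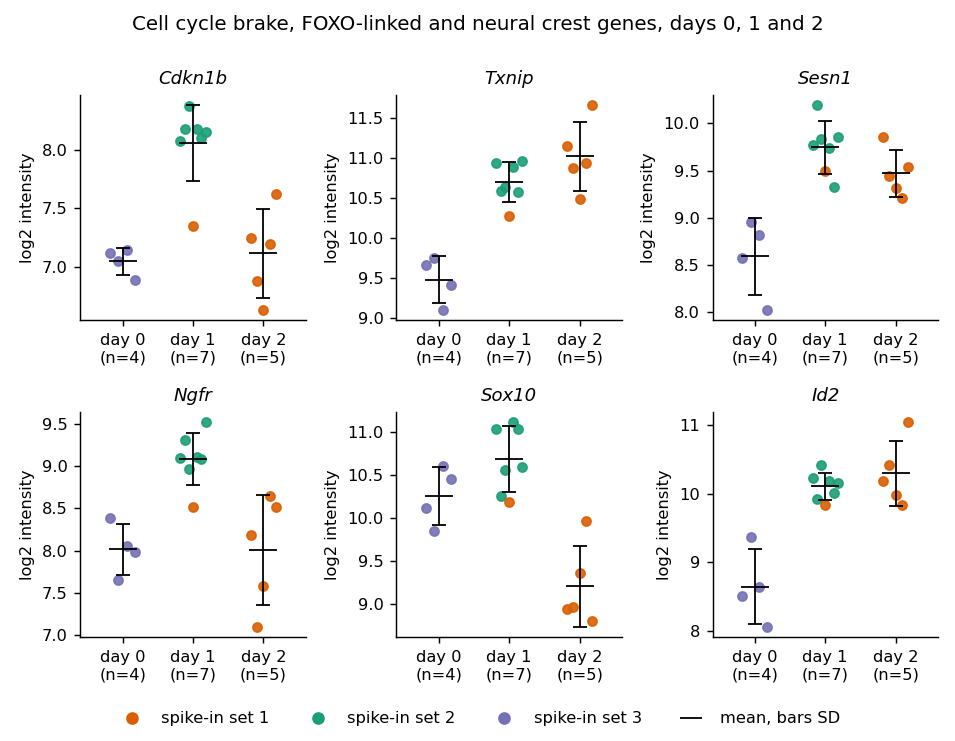
Log2 intensity (y axis) of 6 genes in tumours of day 0 (n = 4), day 1 (n = 7) and day 2 (n = 5), with the mean and SD in black and colour giving the spike-in set. Day 1 replicate 4, in set 1 like all of day 2, is the lowest day 1 tumour in Cdkn1b, Txnip, Ngfr, Sox10 and Id2.

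Growth and energy genes had few calls. Ribosome biogenesis had 1 of 27 lower, Nop58, a core protein of nucleolar particles, at -0.82 ± 0.26 (adjusted p = 0.0309), and 25 of the 27 differences were negative. The Nop58 call ended without any 1 of 6 of the 11 tumours (0.0518 to 0.122). The list's summed intensity was 23200 to 28400 at day 1 against 31100 to 36100 at day 0, while its median of -0.22 was 0.12 under the spike-in block. In glycolysis 0 of 19 were called, with 18 negative (median -0.28), in the respiratory chain 0 of 24, with 21 positive (median 0.11), and in the mitochondrial ribosome 0 of 24 (median -0.01). Hypoxia-induced genes had 1 of 19 lower, where 6.25% of all genes were. It was the angiogenesis gene Vegfa, at 7.08 to 8.59 (median 7.57) at day 1 and 8.89, 8.41, 8.09 and 8.73 at day 0. That fall (-0.88 ± 0.26, adjusted p = 0.0227) did not pass when day 0 replicate 1 or 4 was dropped, or day 1 replicate 1 or 6 (0.05 to 0.0887). Cholesterol synthesis had 1 of 19 higher, with Hmgcs1, an early enzyme of the pathway, at 0.08 ± 0.26 (adjusted p = 0.875).

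Stress genes that ATF4 induces when amino acids are short had 4 of 23 lower and 0 higher, where 6.25% of all genes were lower. Asns, the asparagine synthetase gene, was at 8.67 to 9.06 (median 8.85) at day 1 and at 9.79, 9.35, 9.39 and 10.37 at day 0. Day 0 replicate 4 was the highest tumour and the groups did not overlap (-0.85 ± 0.26, adjusted p = 0.0264), but the call ended without day 0 replicate 1 (0.0642) or 4 (0.173). Dropping day 0 replicate 4 left 0 calls in the list. Dropping replicate 1 of day 0, or replicate 1 or 5 of day 1, left 1, and dropping replicate 6 of day 1 left 2. Under the spike-in block 1 was lower and the median, -0.26 without it, was 0.06.

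Time of day was looked at through clock genes, since hours of collection are not given. Of 16 clock genes 1 was lower, where 6.25% of all genes were. It was Arntl, which encodes the activator BMAL1, at 7.51 to 8.54 (median 7.87) at day 1 and 8.54, 8.27, 8.56 and 8.35 at day 0 (-0.58 ± 0.16, adjusted p = 0.0136). The Arntl call ended in the fit of the 11 tumours alone (adjusted p = 0.0511) and under the spike-in block (-0.38, adjusted p = 0.268). The output and repressor genes Dbp (-0.03 ± 0.24), Per1 (0.04 ± 0.39) and Nr1d1 (-0.35 ± 0.33) were not called. Of 16 glucocorticoid response genes, 1 rose, the sulfotransferase gene Sult1a1 (2.13 ± 0.41, adjusted p = 0.000793), and 1 fell. Fkbp5, a chaperone gene that glucocorticoids induce, was at 9.36 to 10.36 (median 9.93) at day 1, against 8.75, 9.18, 9.14 and 8.94 at day 0. All 7 day 1 tumours lay above day 0, without a call (0.86 ± 0.41, adjusted p = 0.168). It passed in the fit of the 11 tumours alone (adjusted p = 0.0181) and under the spike-in block (2.12, adjusted p = 0.0282), where the list's median was 0.77 against 0.04 without it.

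Melanocyte and neural crest genes split. Of 20 tested, 3 rose (1 without day 0 replicate 4) and 3 fell (1 without day 0 replicate 3 or 4), where 7.57% of all genes rose and 6.25% fell. The pigment genes Pmel (-0.06 ± 0.13), Mlana (-0.12 ± 0.28), Tyrp1 (-0.23 ± 0.41) and Dct (-0.55 ± 0.40) were not called. Their levels were low at both days: Mlana was at 5.01 to 5.54 at day 1 and at 5.03 to 5.59 at day 0, and Tyrp1 at 4.92 to 5.56 at day 1 and 5.03 to 5.95 at day 0. Sox10, the neural crest factor, was plainly present, at 10.19 to 11.12 (median 10.60) at day 1 and at 10.12, 9.85, 10.61 and 10.46 at day 0 (0.43 ± 0.28, adjusted p = 0.333). Mitf, the master regulator of the lineage, was at 8.03 to 8.74 (median 8.42) at day 1, against 7.83, 8.06, 7.80 and 7.24 at day 0, with 6 of 7 above day 0, and was not called (0.61 ± 0.29, adjusted p = 0.162).

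Pax3, an early neural crest factor, was at 7.24 to 8.25 (median 7.82) at day 1 and at 8.79, 8.93, 8.94 and 8.66 at day 0. The groups lay apart (-1.07 ± 0.36, adjusted p = 0.0446), but the call ended without any 1 of 9 of the 11 tumours (0.0585 to 0.0957). Tfap2a, a neural crest factor that works with Mitf, was at 8.73 to 9.70 (median 9.13) at day 1, against 10.09, 9.88, 9.97 and 10.30 at day 0 (-0.92 ± 0.26, adjusted p = 0.015, at 0.0709 without day 0 replicate 4). Under the spike-in block Tfap2a was at -0.20 (adjusted p = 0.777). Of the members that rose, Ngfr, the nerve growth factor receptor of neural crest cells, was at 8.52 to 9.53 (median 9.10) at day 1 and at 8.38, 7.65, 8.05 and 7.99 at day 0. All 7 tumours were higher (1.07 ± 0.31, adjusted p = 0.0176), and the call ended without day 0 replicate 2 (0.0603) or 4 (0.0576). S100b, a calcium-binding protein of melanoma and Schwann cells, was at 8.47 to 9.61 (median 9.36) at day 1 and at 7.07, 7.45, 8.77 and 5.83 at day 0 (1.99 ± 0.48, adjusted p = 0.00548, at 0.0634 without day 0 replicate 4).

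BMP and Hippo genes included some of the largest shifts. Grem1, a secreted BMP antagonist, had the largest fall of all called genes, 5.96-fold lower at day 1. It was at 8.10 to 10.83 (median 8.93) at day 1, against 13.38, 11.69, 10.59 and 12.03 at day 0, and only day 1 replicate 3 reached day 0 (-2.58 ± 0.73, adjusted p = 0.0162). That call ended without day 0 replicate 1 (0.0854) or 4 (0.0552). Bmp7, a BMP ligand, was at 6.39 to 6.73 (median 6.61) at day 1 and at 7.48, 7.12, 7.10 and 7.46 at day 0. Id2, an inhibitor of differentiation factors and a BMP target, was at 9.84 to 10.43 (median 10.15) at day 1 and at 8.50, 9.37, 8.64 and 8.05 at day 0. Neither gene overlapped between the days, and both calls, Bmp7 at -0.71 ± 0.12 (adjusted p = 0.00032) and Id2 at 1.47 ± 0.26 (adjusted p = 0.000363), passed under all alternatives, the spike-in block included (-0.90 and 1.88). Over 18 genes of BMP and TGF-beta signalling, 3 rose and 2 fell, with 1 higher call left without any 1 of 7 of the 11 tumours.

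Tead1, the DNA-binding partner of YAP, was at 9.41 to 10.72 (median 10.02) at day 1, against 10.76, 11.11, 11.26 and 11.45 at day 0. Replicate 4 of day 1 came nearest to day 0, without overlap (-1.13 ± 0.20, adjusted p = 0.00052, and -0.96 with the block, adjusted p = 0.0378). The list of 14 YAP and TAZ targets, which also holds genes of the pathway itself, had 1 that rose and 2 that fell. Those that fell were Tead1 and Yap1, the gene of YAP (-0.48). Ccn2, a matricellular protein that YAP and TGF-beta both induce, was the one that rose, at 10.25 to 12.35 (median 11.78) at day 1 and 9.43, 11.27, 10.89 and 8.44 at day 0 (1.62 ± 0.40, adjusted p = 0.00606). It was at 0.084 without day 0 replicate 4. Among Wnt genes 3 of 17 fell, where 6.25% of all genes fell. These included the transcription factor gene Lef1 (-0.88 ± 0.21, adjusted p = 0.00496, at 0.0562 without day 0 replicate 4). The Wnt list held 1 lower call without day 0 replicate 1 or 4. With the block it held 0, and Lef1 was at -0.64 (adjusted p = 0.205). Slc9a2, a sodium and proton exchanger, was at 5.49 to 7.27 (median 6.34) at day 1 and at 9.21, 7.37, 7.47 and 8.73 at day 0. It fell 3.35-fold, with no overlap and a call in all alternatives (-1.74 ± 0.36, adjusted p = 0.00154).

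Macrophage genes were higher at day 1. Of 28 tested 15 rose and 0 fell, where 7.57% of all genes rose, and their median difference was 1.12. The lysozyme gene Lyz2 of this list was 3.81-fold higher at day 1. Apoe, the lipid carrier of macrophages and other cells, which is outside the list, was 6.48-fold higher. The summed intensity of the 28 genes was 54700 to 83400 at day 1 and 20000 to 42600 at day 0, and day 1 replicate 4 was the lowest of its group.

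Apoe was at 13.00 to 13.71 (median 13.27) at day 1, against 10.27, 11.57, 11.48 and 9.26 at day 0. All day 1 tumours lay above day 0, where replicate 4 was lowest (2.69 ± 0.35, adjusted p = 1.95e-05). Lyz2 was at 12.60 to 13.29 (median 12.93) at day 1 and at 11.37, 11.92, 11.03 and 9.96 at day 0, again with replicate 4 lowest at day 0 (1.93 ± 0.27, adjusted p = 3.49e-05). C1qb, a chain of complement C1q that macrophages make, was at 11.22 to 12.55 (median 12.04) at day 1, against 10.30, 11.05, 9.87 and 8.60 at day 0. It did not overlap (2.08 ± 0.34, adjusted p = 0.000172). Cd68, a lysosomal protein of macrophages, overlapped in 1 tumour (1.34 ± 0.31, adjusted p = 0.00379, at 0.0567 without day 0 replicate 4). The scavenger receptor genes Cd163 (0.20), Mrc1 (0.50) and Msr1 (0.17) and the polarisation markers Arg1 (0.25) and Nos2 (-0.22) were not called. Lyz1 and Lyz2 are near-identical, so their probe sets may share signal.

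Under the spike-in block, 3 of the 28 macrophage genes were called and the median was 0.69. Lyz2, at 0.84 (adjusted p = 0.134), and C1qb, at 1.54 (adjusted p = 0.0511), did not pass. Apoe, outside the macrophage list, was at 2.38 (adjusted p = 0.00794). The cholesterol carrier genes of the LXR list had 2 of 13 higher, Apoe and Pltp, the phospholipid transfer protein. Pltp was at 9.80 to 11.41 (median 10.66) at day 1, against 9.44, 9.61, 9.66 and 8.88 at day 0 (1.28 ± 0.27, adjusted p = 0.00173). Of 26 lysosomal genes 7 rose and 0 fell, where 7.57% of all genes rose. Ctsh, a cathepsin, was at 10.19 to 11.50 (median 11.19) at day 1 and at 9.85, 9.46, 9.44 and 9.08 at day 0, with replicate 4 the lowest at day 1 (1.63 ± 0.24, adjusted p = 6.13e-05). Lamp1 (0.12), Ctsd (0.11) and Gla (-0.19) were not called. The block left 2 higher and 1 lower call among the lysosomal genes, with Ctsh at 0.95 (adjusted p = 0.0503).

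Most complement genes were higher at day 1. Of 15 tested, 9 rose, 1 fell and 5 were not called, and in 8 of the 15 the day 1 tumours all lay above day 0, where 3.97% of all genes did. C1ra and C1s1, the proteases of the first component, were 4.88 and 5.88-fold higher, factor B (Cfb) 4.59-fold and Serping1, the inhibitor of those proteases, 6.46-fold. Serping1 was at 11.12 to 12.67 (median 11.90) at day 1, against 9.34, 9.86, 9.15 and 8.48 at day 0 (2.69 ± 0.35, adjusted p = 1.95e-05). C1s1 was at 9.81 to 11.14 (median 10.66) at day 1 and at 8.05, 8.34, 7.60 and 7.85 at day 0 (2.56 ± 0.37, adjusted p = 4.03e-05).

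Cfb had 8.33 to 9.71 (median 9.25) at day 1, against 6.47, 8.07, 6.71 and 6.43 at day 0, where replicate 2 stood highest (2.20 ± 0.31, adjusted p = 3.49e-05). The member that fell was Masp1, a protease of the lectin pathway, at 6.48 to 8.70 (median 8.0) at day 1 and at 9.96, 9.44, 8.73 and 9.49 at day 0 (-1.50 ± 0.34, adjusted p = 0.00357). Between 7 and 10 members stayed higher whichever tumour was left out, 6 with the spike-in block and 9 with the dap gap as a covariate. Under the block Serping1 was at 2.36 (adjusted p = 0.00715), C1s1 at 2.21 (adjusted p = 0.0162), C1ra at 1.95 (adjusted p = 0.0148) and Cfb at 1.79 (adjusted p = 0.0178).

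Genes of T and NK cells rose in 21 of 26, where 7.57% of all genes rose, with 0 lower and a median of 1.36. The largest difference of the list was that of Ccl5 (2.89), followed by Nkg7 and Klrd1. Nkg7, a protein of cytotoxic granules, was at 6.92 to 9.93 (median 8.75) at day 1, against 5.83, 7.02, 5.55 and 5.92 at day 0, and replicate 4 of day 1 fell just below replicate 2 of day 0 (2.66 ± 0.51, adjusted p = 0.000889). Klrd1, an NK receptor, was at 7.53 to 9.53 (median 8.64) at day 1 and at 6.81, 6.93, 4.74 and 5.62 at day 0 (2.61 ± 0.54, adjusted p = 0.00155). Ms4a4b, a T cell membrane protein outside the list, was at 7.07 to 9.85 (median 9.24) at day 1, against 5.62, 6.97, 4.56 and 5.08 at day 0 (3.29 ± 0.56, adjusted p = 0.000291).

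Day 1 replicate 4 was the lowest of its group in all 3 genes. The T cell receptor subunits Cd3d (1.77) and Cd3g (1.87) and the coreceptors Cd4 (0.65) and Cd8a (1.68) were called, whereas Cd3e was at 7.01 to 8.18 (median 7.49) at day 1 and 7.29, 7.22, 6.91 and 7.63 at day 0 (0.28 ± 0.17, adjusted p = 0.292). The list held 11 calls without day 0 replicate 3 and 12 without day 0 replicate 4. With the spike-in block it held 4, at a median of 1.33 close to that without the block, Nkg7 at 2.98 (adjusted p = 0.0138) and Klrd1 at 1.95 (adjusted p = 0.135).

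Other immune lists followed in part. Among dendritic and mast cell genes 7 of 18 rose and all 18 differences were positive. Batf3, a factor of cross-presenting dendritic cells, was at 6.75 to 8.33 (median 7.37) at day 1 and at 6.33, 6.50, 6.07 and 6.38 at day 0, with no overlap and a call in all alternatives (1.16 ± 0.21, adjusted p = 0.000556). The mast cell protease genes Tpsb2 (1.62 ± 0.39, adjusted p = 0.00564) and Cpa3 (2.20 ± 0.60, adjusted p = 0.0134, at 0.0854 without day 0 replicate 1) were higher in all 7 tumours. That list held 3 calls without day 0 replicate 1 and 4 without day 0 replicate 4, and 1 under the spike-in block, as with bioD and dap levels as covariates. B and plasma cell genes rose in 4 of 13, Cd79b of the B cell receptor among them (1.14 ± 0.23, adjusted p = 0.00155), while Cd79a (-0.04), Ms4a1 (0.17) and Pax5 (-0.07) were not called. The 4 became 2 when day 0 replicate 2, 3 or 4 was dropped, or day 1 replicate 2. Neutrophil genes rose in 1 of 18, where 7.57% of all genes rose. It was S100a9, at 10.19 to 13.43 (median 11.04) at day 1 and 9.45, 6.54, 7.88 and 10.09 at day 0. Its 2.81 ± 0.87 (adjusted p = 0.0279) was no longer called with replicate 2 (0.127) or 3 (0.0778) of day 0, or replicate 6 (0.0631) of day 1, dropped, and was 0.71 (adjusted p = 0.782) with the spike-in block.

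Chemokine genes rose in 10 of 28, where 7.57% of all genes rose, and those that attract lymphocytes had the largest folds. Cxcl12, which stromal cells make, was at 10.24 to 11.46 (median 11.04) at day 1 and at 8.44, 9.06, 8.48 and 8.39 at day 0 (2.29 ± 0.38, adjusted p = 0.000227, and 2.59 with the block, adjusted p = 0.00782). Cxcl9, which interferon gamma induces, was at 7.76 to 12.23 (median 11.58) at day 1, against 5.87, 8.56, 6.45 and 9.52 at day 0. Day 1 tumours spread widely, with replicate 4 lowest (3.16 ± 0.84, adjusted p = 0.0112, at 0.0653 without day 0 replicate 1). Ccl5, a T cell and NK cell chemokine, was at 7.59 to 11.58 (median 10.46) at day 1 and at 6.80, 8.75, 6.51 and 7.21 at day 0 (2.89 ± 0.54, adjusted p = 0.000676). The neutrophil attractants Cxcl1 (-0.12), Cxcl2 (0.62) and Cxcl3 (-0.01) and the monocyte attractants Ccl2 (-0.18) and Ccl7 (-0.35) were not called. The list held 6 calls without day 0 replicate 1.

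**Figure D3:**
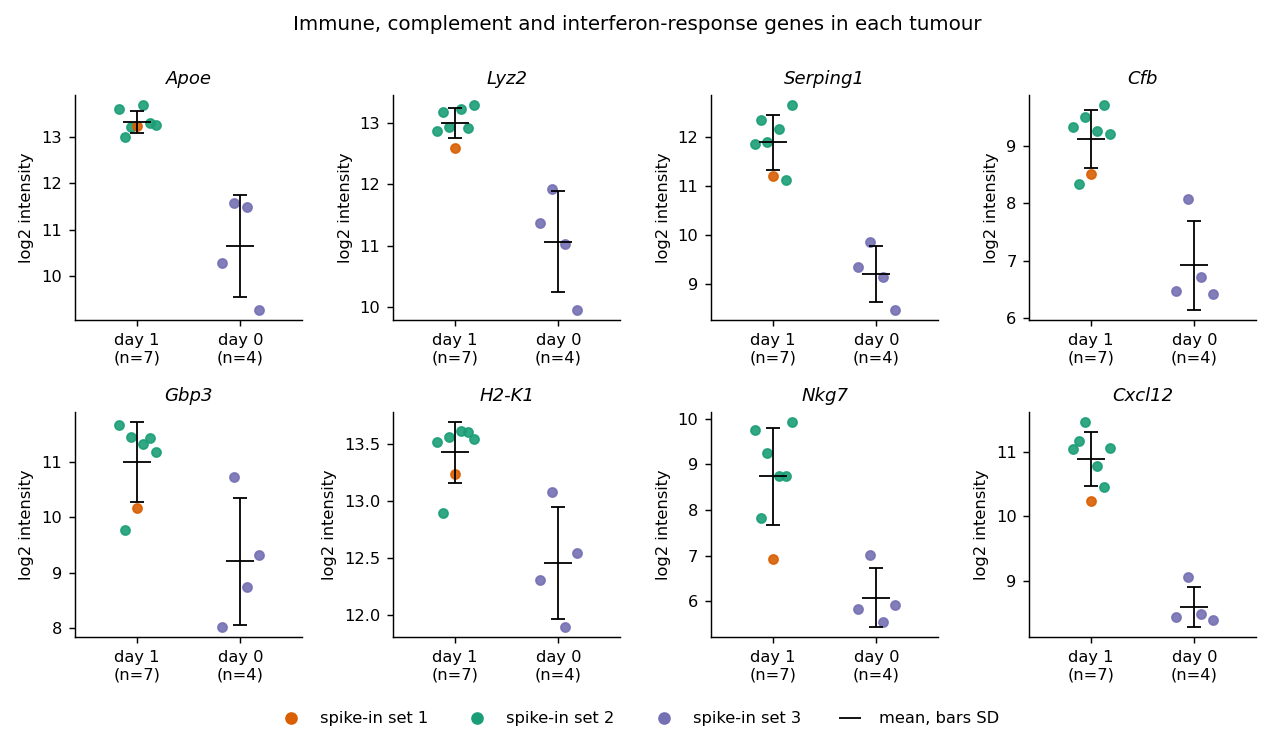
Log2 intensity (y axis) of 8 immune, complement and interferon-response genes in the 7 day 1 tumours (left of each panel) and the 4 day 0 tumours (right), with the mean and SD in black and colour giving the spike-in set. Apoe, Lyz2, Serping1, Cfb and Cxcl12 do not overlap between the days, and in Gbp3, H2-K1 and Nkg7 1 or 2 day 1 tumours reach the day 0 range.

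Interferon-response genes were higher at day 1. The interferon-inducible GTPases, which attack vacuoles of pathogens, rose in 9 of 10, with a median of 1.72. Antiviral genes rose in 10 of 26 (median 0.81), and genes of class I antigen presentation in 11 of 14 (median 0.94). In both interferon lists every difference was positive. Day 0 replicate 2 was high in these genes: the summed intensity of the 26 antiviral genes was 9040 to 22900 at day 1, and 4680 to 24000 at day 0.

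Interferons act through factors that bind the interferon-stimulated response element (ISRE), so the windows around 3 gene starts are shown, from RefSeq on the GRCm38.p6 build, all on the plus strand and each 300 bases long. Capitals mark matches to the motif GAAA, any 2 bases, GAAA, searched on both strands, and the overlapping matches of Gbp3 form 1 run of capitals. They are Gbp2 at chr3:142620413-142620712, Gbp3 (the first of 2 windows) at chr3:142559794-142560093 and B2m at chr2:122147437-122147736.
Gbp2: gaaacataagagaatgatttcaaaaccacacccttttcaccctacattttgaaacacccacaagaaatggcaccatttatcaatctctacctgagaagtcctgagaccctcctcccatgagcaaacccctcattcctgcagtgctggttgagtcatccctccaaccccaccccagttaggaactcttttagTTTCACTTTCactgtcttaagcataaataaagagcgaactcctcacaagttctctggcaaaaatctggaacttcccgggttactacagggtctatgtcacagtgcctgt
Gbp3: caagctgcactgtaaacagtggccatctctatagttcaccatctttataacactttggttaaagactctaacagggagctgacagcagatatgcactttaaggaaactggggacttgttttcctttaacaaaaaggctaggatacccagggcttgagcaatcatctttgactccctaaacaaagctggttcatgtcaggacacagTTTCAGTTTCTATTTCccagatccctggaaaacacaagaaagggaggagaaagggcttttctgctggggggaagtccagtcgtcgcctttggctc
B2m: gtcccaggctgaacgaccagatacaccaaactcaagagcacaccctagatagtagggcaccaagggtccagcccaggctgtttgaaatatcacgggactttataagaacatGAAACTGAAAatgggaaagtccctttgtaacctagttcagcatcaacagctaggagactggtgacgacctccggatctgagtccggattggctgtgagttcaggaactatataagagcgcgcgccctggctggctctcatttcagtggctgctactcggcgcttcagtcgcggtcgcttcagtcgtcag

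The matches start 59 bases before the gene start in Gbp2, 45 and 39 bases before it in Gbp3 and 139 bases before it in B2m. Over all RefSeq windows 1131 of 32851 (3.44%) hold the motif, and 1079 of 27025 genes (3.99%) have a window with it. It was found in 6 of the 7 tested GTPase genes that have a window, in 10 of 19 antiviral genes, in 3 of 12 class I genes and in 1 of 19 ERK targets. A match is a description of the letters, not evidence of binding.

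Gbp2 was at 11.16 to 12.81 (median 12.64) at day 1, against 8.44, 11.75, 9.95 and 11.41 at day 0. Day 1 replicates 2 and 4 were low, within the day 0 range (1.88 ± 0.41, adjusted p = 0.00262). Gbp3 gave the same picture, with 9.77 to 11.65 (median 11.31) at day 1 and 8.02, 10.72, 8.74 and 9.33 at day 0 (1.79 ± 0.37, adjusted p = 0.00155, and 2.34 with the block, adjusted p = 0.00968). Gbp8 had the largest rise of all genes, 13.4-fold, at 6.59 to 10.70 (median 9.65) at day 1 and at 4.76, 6.78, 4.69 and 5.69 at day 0 (3.74 ± 0.80, adjusted p = 0.00205). Day 1 replicate 4, its lowest tumour, lay below day 0 replicate 2. Irf9, a subunit of the factor that binds the ISRE, was at 7.63 to 8.29 (median 8.19) at day 1 and at 6.90, 7.86, 7.10 and 7.32 at day 0 (0.77 ± 0.16, adjusted p = 0.00147). Cxcl10, another interferon-induced chemokine, was not called (1.51 ± 0.53, adjusted p = 0.0546).

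H2-K1, a class I heavy chain, was at 12.89 to 13.61 (median 13.54) at day 1, against 12.31, 13.08, 11.89 and 12.54 at day 0. Only day 1 replicate 2 overlapped day 0 (0.97 ± 0.17, adjusted p = 0.000442), and the call held in all alternatives (1.30 with the block, adjusted p = 0.00302). B2m, the class I light chain, was at 13.41 to 13.85 (median 13.73) at day 1 and at 12.70, 13.46, 12.50 and 13.11 at day 0 (0.73 ± 0.13, adjusted p = 0.000554). H2-M3, which presents bacterial peptides, was 3.17-fold higher with no overlap (1.67 ± 0.30, adjusted p = 0.000556). Class II genes rose in 7 of 15 (median 0.97), with H2-Eb1 at 7.20 to 10.08 (median 9.01) at day 1 and at 7.81, 7.13, 6.62 and 7.46 at day 0 (1.61 ± 0.44, adjusted p = 0.0133, at 0.0598 without day 0 replicate 3).

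These counts hung on single tumours. Antiviral calls numbered 22 with day 0 replicate 2 dropped, 6 with day 1 replicate 1 dropped, 3 with day 0 replicate 3 or 4 dropped and 1 with day 0 replicate 1 dropped. The GTPase calls numbered 5 without day 0 replicate 1, and class II calls 1 without day 0 replicate 3 and 11 without day 1 replicate 4. With the block 5 GTPase, 6 class I, 2 antiviral and 0 class II genes were called, at medians of 1.97, 1.26, 1.02 and 0.92. In a fit of the 11 tumours alone 2 GTPase and 1 antiviral gene passed.

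Some genes of Schwann cells and myelin rose, 6 of 19, and 1 fell, where 7.57% of all genes rose and 6.25% fell. Scn7a, a sodium channel of Schwann cells and nerve, was at 9.30 to 9.92 (median 9.67) at day 1, against 6.10, 7.90, 8.41 and 6.23 at day 0, with the wider spread at day 0 (2.46 ± 0.48, adjusted p = 0.00104). Mal, a myelin and T cell membrane protein, was at 7.63 to 9.90 (median 8.20) at day 1 and at 5.06, 5.83, 6.79 and 5.28 at day 0 (2.83 ± 0.58, adjusted p = 0.00155). Another Mal probe set differed by only 0.48, with means of 7.46 at day 1 and 6.98 at day 0. Cnp, a myelin enzyme, was at 10.81 to 11.89 (median 11.49) at day 1 and at 9.64, 10.32, 10.72 and 9.82 at day 0 (1.30 ± 0.28, adjusted p = 0.0021). In all 3 genes the days did not overlap at the probe set brightest over all arrays. Their calls passed under all alternatives (3.20, 3.14 and 1.68 with the block). Mbp, the myelin basic protein gene, ranged from 5.66 to 10.16 at day 1 and from 4.99 to 8.64 at day 0 and was not called (1.62 ± 0.82, adjusted p = 0.191). The list held 3 higher calls without day 0 replicate 4.

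Fibroblast genes rose in 3 of 23, without the collagens, where 7.57% of all genes rose. Mfap5, a microfibril protein of dermal and adventitial fibroblasts, was 11.3-fold higher, at 8.17 to 11.44 (median 10.15) at day 1 and at 5.40, 8.13, 7.85 and 5.48 at day 0 (3.50 ± 0.65, adjusted p = 0.000614). Pi16, a marker of the same cells, was at 7.55 to 9.07 (median 8.44) at day 1 and at 6.34, 6.63, 6.52 and 6.57 at day 0 (2.00 ± 0.41, adjusted p = 0.00167). With the block neither passed (2.67, adjusted p = 0.0985, and 1.43, adjusted p = 0.167). Col1a1, the main collagen gene, lay inside the day 0 range (0.07 ± 0.36, adjusted p = 0.927). Endothelial genes had 1 of 20 lower, where 6.25% of all genes were. It was the VEGF receptor gene Flt1 (-0.80 ± 0.26, adjusted p = 0.0359), which was at 0.05 (adjusted p = 0.949) with the block. Flt1 did not pass when day 0 replicate 1, 2 or 4 was dropped, or day 1 replicate 1 or 6 (0.0586 to 0.186). Pecam1, a marker of all endothelium, was at -0.34 ± 0.33 (adjusted p = 0.555).

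Marker genes of skin, muscle and fat varied widely between tumours, without a call. Keratinocyte genes had 0 of 22 called, with a summed intensity of 1590 to 34200 at day 1 (34200 in replicate 4) and 4840 to 21200 at day 0. Krt14, a basal keratin, was at 7.58 to 12.95 (median 11.32) at day 1 and at 6.06, 8.10, 11.38 and 12.91 at day 0. Skeletal muscle genes had 0 of 19 called, although all 19 differences were positive, and summed to 637 to 9170 at day 1 and 650 to 800 at day 0. Adipocyte genes, 0 of 10 called, summed to 827 to 2930 at day 1 and 526 to 997 at day 0. For comparison, T and NK cell genes summed to 8180 to 16500 at day 1 and 3340 to 6700 at day 0. The part of such cells in the results above was not tested.

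**Figure D4:**
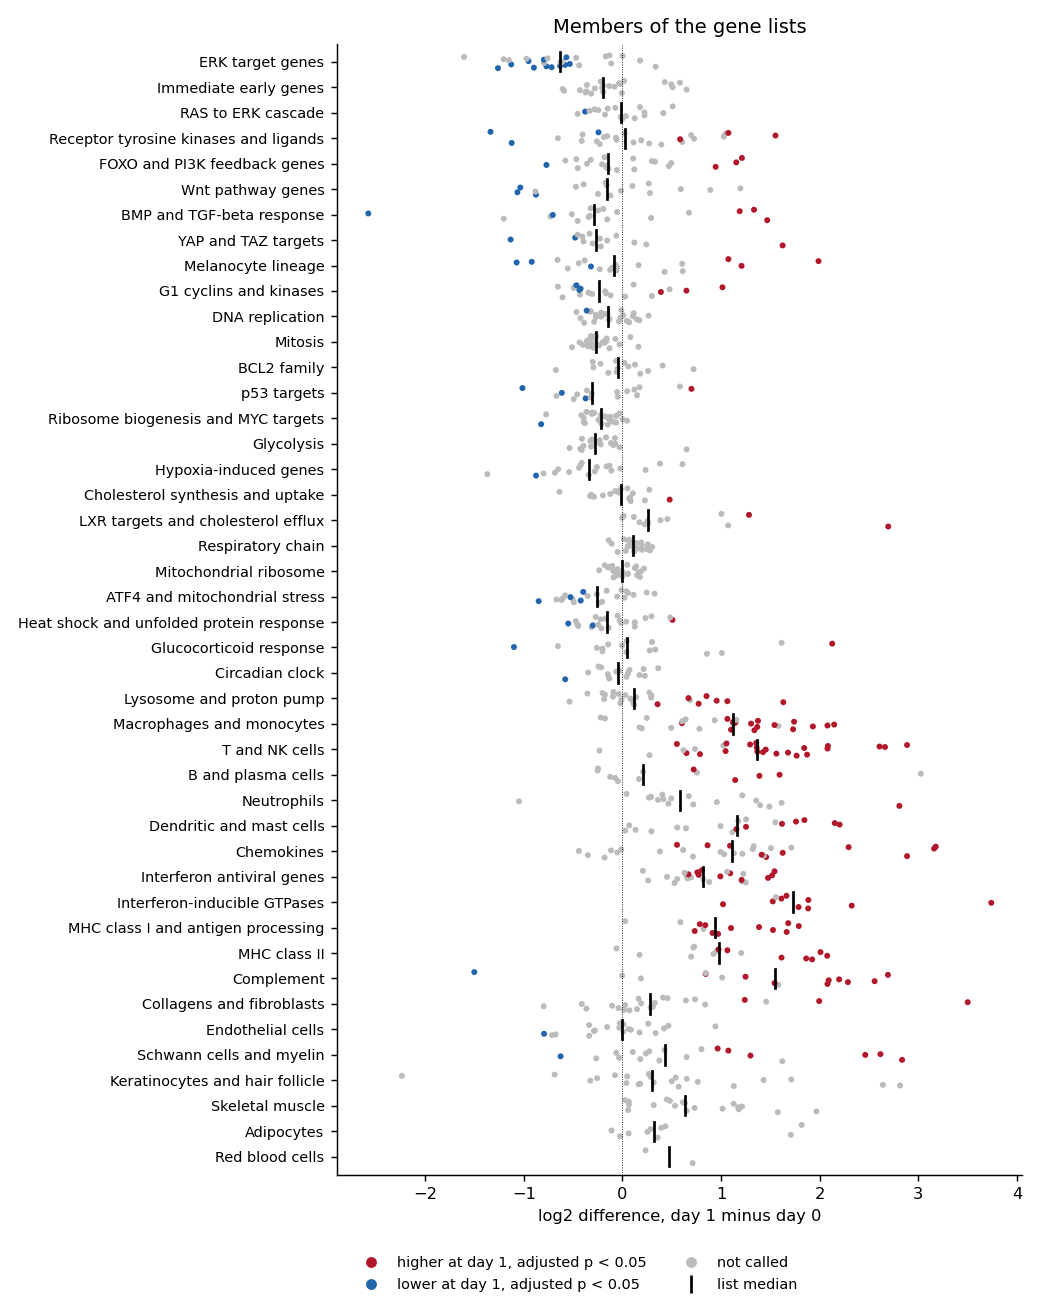
Log2 differences of day 1 minus day 0 (x axis) for every tested member of the 44 gene lists (y axis), each dot a gene, with called genes in red (higher) or blue (lower) and the list's median as a bar. ERK targets lie to the left (median -0.63), the T and NK cell, macrophage, interferon and complement lists to the right (medians 0.81 to 1.72).

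The spike-in block in the fit of all 41 tumours left 1640 calls, of which 619 were among the 1979, so that 31.3% of the calls were kept. Of 130 named genes that were called, 43 passed with the block and 129 had the same sign, Flt1 being the exception. The median of all genes was at 0.075 under the block. With bioD and dap levels as covariates 675 genes were called, and with the dap gap as a covariate, added after the data were seen, 815. The sets of day 0 and of most day 1 tumours meet only in a group named late here. That group pools the tumours longest off the drug, of differing days. Its replicates 1 to 8 are in set 2 and its replicates 9 and 10 in set 3. The tumours of set 3 in it were longer off the drug than those of set 2. The step between these sets thus rests on few tumours and is mixed with time off the drug. Set 1 shares only the day 1 group with another set. Under the block, day 1 replicate 4 therefore adds nothing to the difference of day 1 minus day 0. What the spike-in sets remove of day and of array handling cannot be told apart.

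A set of 26 named genes passed under each alternative run, left-out tumours included. Among them were the lipid carrier gene Apoe and the myeloid and lymphoid genes Lyz1, Batf3, Ccl5, Nkg7 and Ms4a4b. Also in the set were the complement genes C1ra, C1s1, Cfb and Serping1 and the interferon-response genes Gbp3, H2-D1, H2-K1, H2-M3, Calhm6 and AW112010. The rest were the chemokine Cxcl12, the nerve and myelin genes Cnp, Mal and Scn7a, and the signalling genes Bmp7, Cdkn1b, Id2, Slc9a2, Tead1 and Txnip. None of the 26 is in the list of ERK targets. Lyz1 was read from a probe set that may hold signal of Lyz2, which is not in the set.

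**Figure D5:**
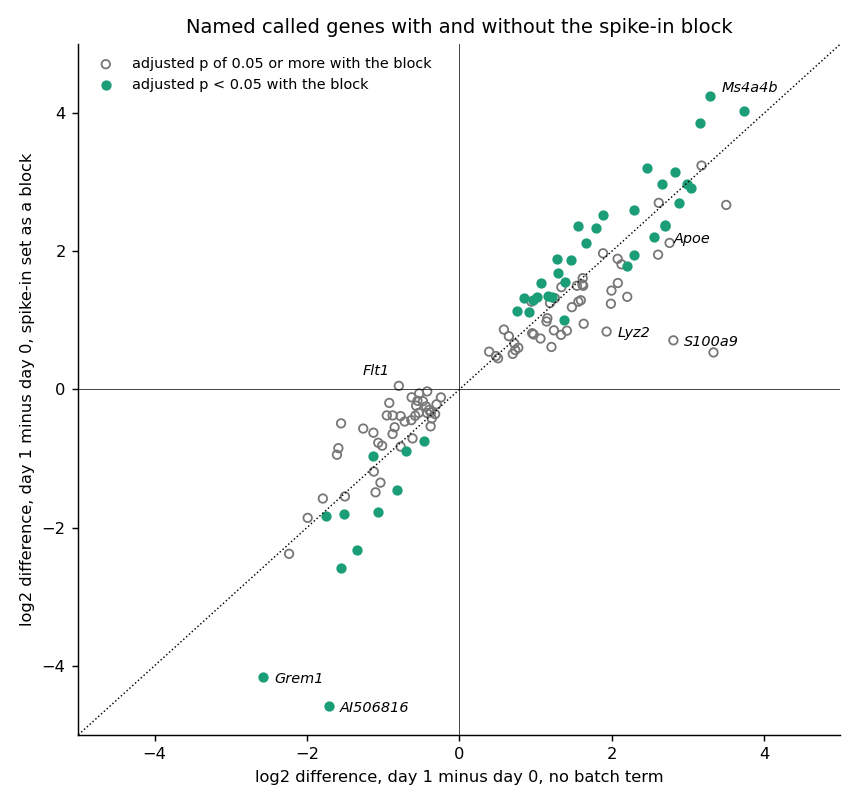
Log2 difference of day 1 minus day 0 for the 130 named genes that were called, without a batch term (x axis) and with the spike-in block (y axis), with the line of equality dotted. Filled points (43) pass with the block, open points do not, and only Flt1 changes sign.

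Day 2 tumours were compared with day 1 next, but all 5 are in spike-in set 1, with 1 of the 7 day 1 tumours. Between day 2 and day 1, 1068 genes were called (7.46%). Under the spike-in block only day 1 replicate 4 stands for day 1 in this comparison, so its calls are not given. ERK targets had 1 of 28 lower and 0 higher, and T and NK cell, macrophage and both interferon lists had 0 called in either direction. Cdkn1b averaged 7.11 ± 0.38 at day 2 (SD, n = 5), against 8.06 ± 0.33 at day 1 (n = 7), and was called lower (-0.95 ± 0.17 SE, adjusted p = 0.00131). Day 1 replicate 4, at 7.35, lay within the day 2 range of 6.63 to 7.63. Sox10 was called lower as well (-1.48 ± 0.26, adjusted p = 0.00142), and replicate 4 was at 10.19 where day 2 ended at 9.97. Txnip averaged 11.02 ± 0.43 at day 2 and 10.70 ± 0.25 at day 1, and Sesn1 9.47 ± 0.25 at day 2 and 9.75 ± 0.28 at day 1, with no call in either.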

How the data were processed

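The deposited intensity table of 41 Affymetrix arrays was used. Per the submitters' processing notes RMA and MAS5 were run, with no role or version stated; the deposited values are on a linear intensity scale, and which method made them is not given in the sources used here. From them log2(intensity + 16) was computed and quantile normalised. Probe sets naming 1 gene were kept, the one of highest mean per gene, and a gene was tested where 3 or more arrays read it above their own 40th percentile. limma 3.58.1 in R 4.3.3 was fitted to all 41 tumours with 1 mean per group (32 residual degrees of freedom), two-sided, with Benjamini-Hochberg adjustment at 0.05. The number of arrays limits the precision. The test was also run on simulated data, built from the means and spreads of these data. The simulation held no differences between spike-in sets.

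Spike-in sets were cut at a log2 bioD level of 12 and, above that, a dap level of 9.4. Genes named are the 12 largest rises and falls, in each list up to 4 called members per direction and the largest uncalled one, and a set always reported; genes given by a difference alone were picked after their values were seen. The members and lists were chosen with earlier results of these data known. Alternatives covered scaling, pseudocount, filter, probe set choice, variance model, array weights, samples fitted, batch terms and left-out tumours. Promoter windows are from RefSeq. Figures used Python 3.11.15 and matplotlib 3.10.9. Some items are not reported here.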

Additional observations from a re-analysis of the deposited data

Results flagged for a closer look

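A Dixon test at the 95% level looked for a single tumour far from the rest of its group in 117 genes, 234 groups in all, and found 9. Chance gives about 1 in 20 groups, which is 5%, so 9 is not more than chance would give.

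At day 1, replicate 4 was far below the others in Cdkn1b, at 7.35 against 8.07 to 8.37, and in Ctsh, at 10.19 against 11.05 to 11.50. Replicate 6 was far below in Ccn2, at 10.25 against 11.53 to 12.35, and replicate 2 in the class I gene H2-D1, at 13.35 against 13.78 to 14.04. Replicate 7 was far above in the glucose transporter gene Slc2a3, at 9.82 against 8.80 to 9.11.

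At day 0, replicate 2 was far above the others in Cxcl12, where it was at 9.06, and in Calhm6, at 7.07 against 4.98 to 5.19. Replicate 4 was far above in Orc1, at 7.46 against 7.04 to 7.05, and far below in the clock gene Nr1d1, at 7.55 against 8.21 to 8.34.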

How the results depend on the processing

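For day 1 against day 0, 1979 genes were called. The count was 3569 with every probe set tested, 3739 with array weights, 675 with bioD and dap levels as covariates, 815 with the dap gap as a covariate (an alternative chosen after the data were seen) and 513 with a 2-fold limit. Leaving out 1 tumour gave 889 to 2455 calls. The other alternatives, among them the spike-in block at 1640 and the fit of the 11 tumours alone at 1730, stayed within 1.5 times the count. For day 2 against day 1, 1068 genes were called, and 538 to 1542 with 1 tumour left out. The spike-in block leaves that comparison 1 day 1 tumour, replicate 4, so its calls are not given. The higher share of the 1068 calls was 37%, against 24.5% with arrays centred on their medians, 28.4% without scaling and 50% with probe sets averaged. The cause of these changes was not tested. Of 130 named genes that were called, 62 passed whichever tumour was left out, and 51 calls ended without day 0 replicate 4. In the fit of the 11 tumours alone 39 of the 130 calls ended. Flt1 was the gene that changed sign, to 0.0507 under the spike-in block. In 7 of the 130 genes (Ccbe1, Cxcl12, Irf4, Laptm5, Mc1r, Rab27a and Tgfa) another probe set had the opposite sign. No paired analysis was possible because the labels number no replicates, and the numbers used here follow the order of the samples only. Signal near background limits what dim genes can show.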

Other observations

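Between day 1 and day 0, 205 of the 1979 called genes were also called between day 2 and day 1, 186 of them in the opposite direction and 19 in the same one. Both comparisons use the day 1 tumours, so that opposite signs are favoured by their shared values.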
